A study of Mus musculus with 10 samples.

Results

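Phosphofructokinase 1 (PFK-1) and the bifunctional 6-phosphofructo-2-kinase/fructose-2,6-bisphosphatases (PFKFB) were examined in the left ventricle of mice with chronic kidney disease. The group holds 7 genes of the 23303 entries in the expression table, chosen by symbol: Pfkm, Pfkl and Pfkp for PFK-1, and Pfkfb1, Pfkfb2, Pfkfb3 and Pfkfb4 for the bifunctional enzymes. The genes were selected on results of the same contrast that is described here, so their differences between the groups and their isoform shares are given as a description with no test. The selection used no threshold on a value, so no gene lies just inside or just outside it. All 7 had a mean of at least 1 FPKM (fragment numbers divided by transcript length and by the size of the library) and so were among the 11651 genes tested.

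PFK-1 phosphorylates fructose 6-phosphate to fructose 1,6-bisphosphate, the committed and most tightly regulated step of glycolysis. Its strongest activator is fructose 2,6-bisphosphate, which the PFKFB enzymes make with one domain and break down with another, so that the balance of both activities sets glycolytic flux. Cardiac muscle carries mainly the muscle PFK-1 subunit, and PFKFB2 is known as the heart isoform, in which insulin and adrenergic signalling raise the kinase activity by phosphorylation.

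The ventricles came from 10 male mice of the strain 129X1/SvJ. In the labels, surgery is given as CKD for 5 mice and as Sham for 5, and the series concerns uremic cardiomyopathy. The age of the mice, the operation behind the CKD label and the time of day at collection are not given in the sources. Mice are numbered within a group only to name them, and no label pairs mice across the groups.

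Library totals lay between 570509 and 605007 FPKM, and depth is known only in relative terms. CKD 1 and Sham 1 stood apart from the other 8 libraries. The 10 most abundant genes took 17.6% to 18.2% of FPKM in those 8, but 14.8% in CKD 1 and 15.3% in Sham 1. Among values of at most 0.1 FPKM, between any 2 of the other 8 libraries 72.6% to 80.6% of genes stood in a single ratio (within 0.2%), which put their depths at 0.906 to 1.15 times that of Sham 2. With CKD 1 or Sham 1 in the pair this share was 2.35% to 3.77%, and it was 8.72% between these 2, so no relative depth could be read for them. Results that rest on these libraries are given with and without them. Most cardiomyocyte markers were abundant, at a summed 76815 to 96212 FPKM in CKD and 79826 to 97017 in Sham, but Myh6 and Atp2a2, the alpha myosin heavy chain and the sarcoplasmic calcium pump, were listed at 0 in all 10 libraries.

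In CKD against Sham, Pfkp was higher and Pfkfb1 lower without overlap of the groups, and the other 5 genes overlapped. By limma over all tested genes at an adjusted p under 0.05, 3.17% of genes were called higher and 2.12% lower. Of the 7 genes, 1 was among those called higher (Pfkp) and 1 among those called lower (Pfkfb1). Of all genes, 4.10% were higher and 3.18% lower with no overlap of the groups. Fold values are on the log2(FPKM + 0.5) scale, where the median of all tested genes was 0.00 (-0.00345), and they understate changes of genes near 0.5 FPKM.

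**Figure D1:**
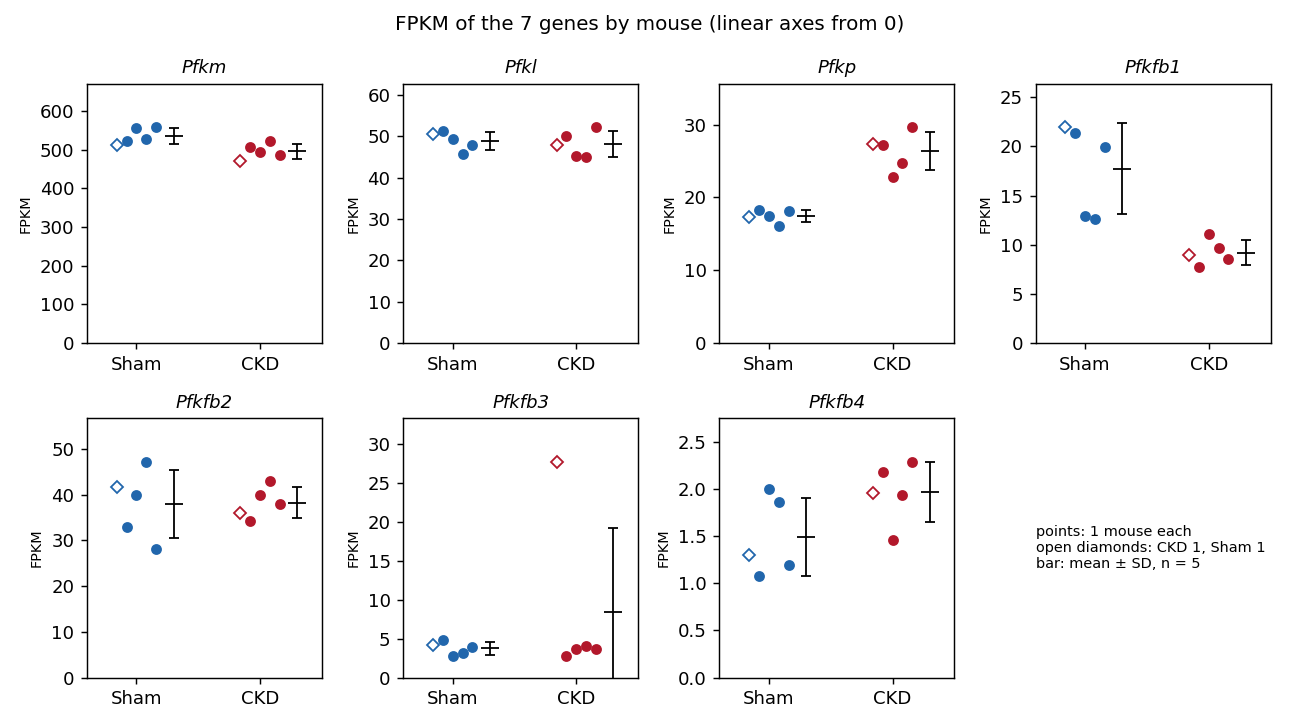
FPKM (linear vertical axes from 0) of the 7 genes in Sham (blue) and CKD (red) mice, 1 point per mouse, with the mean and SD (n = 5) beside the points and CKD 1 and Sham 1 as open diamonds. Pfkp and Pfkfb1 separate the groups, and Pfkfb3 in CKD 1 lies at 27.7 FPKM against at most 4.83 in any other mouse, so that the lower end of its SD bar runs off the axis.

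The muscle subunit Pfkm (chromosome 15, 98092589 to 98132447 of GRCm38, plus strand) was by far the most abundant of the family and ranked 169 by mean FPKM among the tested genes. Its levels in CKD 1 to 5 were 470, 506, 495, 523 and 486 FPKM. In Sham 1 to 5 they were 512, 522, 557, 528 and 560 FPKM. The means were 496 ± 20.2 and 536 ± 21.3 FPKM (SD, n = 5 each), a log2 difference of -0.11 (SE 0.04), and the highest CKD mouse lay above the lowest 2 Sham mice. Pfkm was also among the least variable genes: its coefficient of variation in Sham was 3.97%, lower than in all but 5.48% of tested genes.

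The liver subunit Pfkl (chromosome 10, 77986947 to 78009807, minus strand) stood well below Pfkm in every mouse. It measured 47.8, 50.1, 45.3, 45.1 and 52.3 FPKM in CKD 1 to 5 and 50.5, 51.2, 49.2, 45.6 and 47.9 FPKM in Sham 1 to 5. The Sham values lay inside the CKD range, with a log2 difference of -0.02 (SE 0.06).

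The platelet-type subunit Pfkp (chromosome 13, 6579874 to 6649060, minus strand), known as the form of many proliferating and non-muscle cells, was the least abundant PFK-1 gene. It reached 27.4, 27.2, 22.8, 24.7 and 29.7 FPKM in CKD 1 to 5, against 17.3, 18.2, 17.5, 16.1 and 18.1 FPKM in Sham 1 to 5. Every CKD mouse exceeded every Sham mouse, and the spread was wider in CKD (26.4 ± 2.65 FPKM) than in Sham (17.5 ± 0.854 FPKM). The log2 difference was 0.58 (SE 0.07), 1.49-fold, and without CKD 1 and Sham 1 the means were 26.1 ± 2.99 and 17.5 ± 0.982 FPKM (n = 4 each). Alone of the PFK-1 genes, Pfkp did not overlap between the groups of this contrast, on which the family was chosen. The sequence before a Pfkp start at 6648771 is shown for that reason, which is no test. This start lies inside the gene interval given above, and so does the sequence. It is the part of the RefSeq promoter window (GRCm38.p6) that lies outside annotated exons, printed 5′ to 3′ with GC boxes in capitals:
Pfkp (chr13:6648778-6649021, minus strand): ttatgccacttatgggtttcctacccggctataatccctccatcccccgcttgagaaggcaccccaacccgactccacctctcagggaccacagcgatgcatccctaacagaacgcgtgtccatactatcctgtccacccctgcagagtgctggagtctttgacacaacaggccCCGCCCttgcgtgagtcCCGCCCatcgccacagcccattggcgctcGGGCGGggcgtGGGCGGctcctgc
The window of 250 bases held 4 GC boxes (GGGCGG on either strand), and 32.7% of the 32851 windows of this length held at least 1. It held no match to the hypoxia-factor core ACGTG (in 16.6% of windows), the E-box CACGTG (6.02%, each also an ACGTG match), the D-box TTANGTAA (2.06%) or the interferon-gamma activation site TTCNNNGAA (7.02%).

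The same fold did not appear in the other subunits, so the composition of PFK-1 transcripts differed between the groups. FPKM is scaled to transcript length, which allows a rough comparison of levels between genes. The shares assume that length and counting were right for each gene, which was not checked. Myh6 and Atp2a2, listed at 0 in all 10 libraries, are a reason for care. Pfkm made up 86.9% ± 1.12 of the summed PFK-1 FPKM in CKD and 89.0% ± 0.633 in Sham, with no overlap. Pfkp made up 4.63% ± 0.514 in CKD and 2.90% ± 0.141 in Sham, also with no overlap, and Pfkl 8.44% ± 0.628 and 8.13% ± 0.511, with overlap. Without CKD 1 and Sham 1 the differences were -2.03 percentage points for Pfkm and 1.65 for Pfkp. The overlap depends on the sum used: as shares of all 7 genes, Pfkm overlapped (75.8% to 80.3% in CKD and 78.9% to 82.4% in Sham), Pfkp did not, and Pfkfb1 did not (1.23% to 1.80% and 1.90% to 3.39%), although the Pfkfb1 share of PFKFB given further on overlapped. The summed PFK-1 level was 570 ± 18.6 FPKM in CKD and 602 ± 21.0 in Sham, and these ranges overlapped.

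The ratio of Pfkl to Pfkp did not overlap either, which restates the Pfkp difference, since Pfkl itself overlapped. It was 1.75, 1.85, 1.98, 1.82 and 1.76 in CKD 1 to 5, and 2.92, 2.81, 2.81, 2.84 and 2.65 in Sham 1 to 5. The highest CKD mouse, at 1.98, stayed below the lowest Sham mouse, at 2.65. Across the 10 libraries, with log2 values centred on each group's mean, Pfkl and Pfkp had a Pearson correlation of 0.85, against -0.34 for Pfkm with Pfkl and -0.19 for Pfkm with Pfkp. These are descriptions over libraries that also share their depth and scaling.

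**Figure D2:**
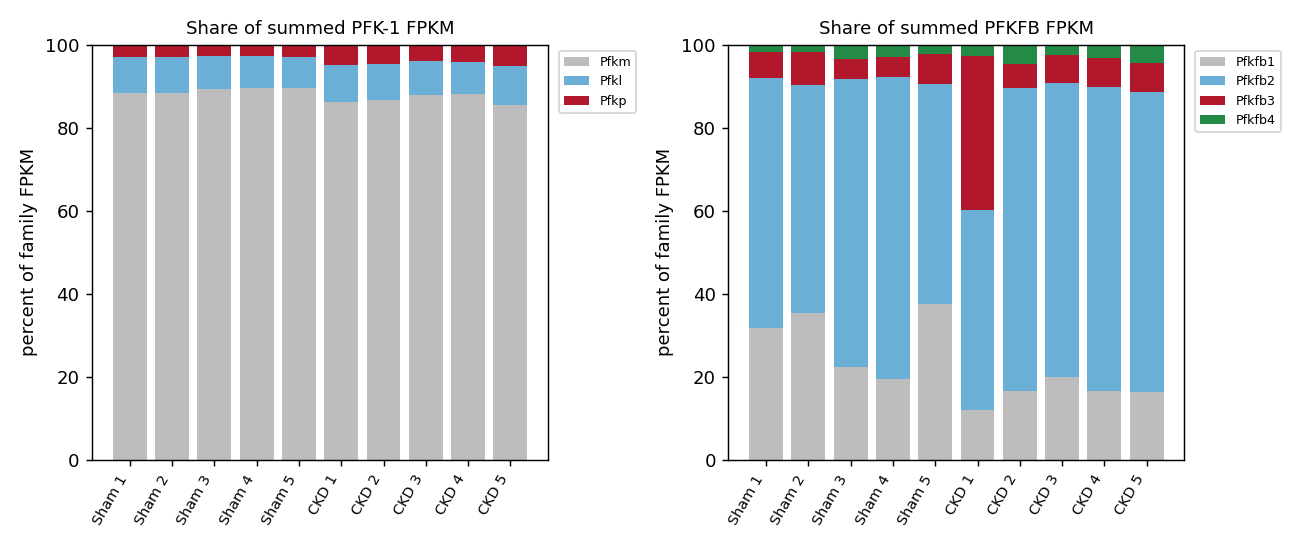
Stacked bars give each isoform's percent of the summed FPKM of PFK-1 (left) and PFKFB (right) in each of the 10 mice. Pfkp takes 4.05% to 5.23% of PFK-1 FPKM in CKD and 2.73% to 3.08% in Sham, and in CKD 1 Pfkfb3 takes 37.2% of PFKFB FPKM.

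Many fibroblast and macrophage markers were higher in CKD, as was Pfkp. Of 10 fibroblast markers 7 were called higher (5 without CKD 1 and Sham 1), with a median log2 difference of 0.63 and sums of 740 to 893 FPKM in CKD and 602 to 683 in Sham. Col1a2, a fibrillar collagen chain, was 49.7 ± 5.87 FPKM in CKD and 32.6 ± 3.20 in Sham (log2 0.60, limma adjusted p = 0.00333), and Mfap5, a microfibril protein, 20.9 ± 3.03 and 9.69 ± 1.19 FPKM (log2 1.07, adjusted p = 0.000700). The fibroblast markers Dcn, Pdgfra and Tcf21 were not called (log2 0.07, 0.05 and -0.13, limma adjusted p = 0.610, 0.759 and 0.556). Of 9 tested macrophage markers 5 were called higher (4 without CKD 1 and Sham 1), with a median of 0.57 and sums over the 10 in the table of 381 to 552 FPKM in CKD and 270 to 327 in Sham. C1qa, a complement chain that tissue macrophages make, was 66.8 ± 9.32 and 37.5 ± 2.07 FPKM (log2 0.81, adjusted p = 0.000813). CKD 5 had the highest Pfkp level and the highest sum of both lists, but CKD 4, with the lowest sums in CKD, did not have the lowest Pfkp, and Sham 2, with the highest Pfkp in Sham, had the lowest fibroblast sum. Dcn made up 538 of the 893 FPKM of the fibroblast sum in CKD 5. In the other CKD mice Dcn was at 417 to 464 FPKM. Limma called 0 of 10 endothelial markers (2 at an unadjusted p under 0.05; median 0.11; sums of 1727 to 2165 FPKM in CKD and 1661 to 1941 in Sham) and 0 of 8 smooth muscle and pericyte markers (3 unadjusted; median 0.11; sums of 310 to 350 and 336 to 366 FPKM). Of 3 tested platelet and megakaryocyte markers limma called 0 (1 at an unadjusted p under 0.05), and the list had sums of 32.2 to 42.0 FPKM (CKD) and 24.2 to 37.2 FPKM (Sham). The part of these cells in the Pfkp difference was not tested, and in bulk tissue more cells of a type and more RNA per cell cannot be told apart.

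Among the bifunctional enzymes the heart isoform Pfkfb2 (chromosome 1, 130689043 to 130729253, minus strand) was the most abundant in every mouse. It measured 35.9, 34.3, 39.9, 43.0 and 37.9 FPKM in CKD 1 to 5 and 41.6, 33.0, 40.0, 47.2 and 28.2 FPKM in Sham 1 to 5. The CKD values lay inside the Sham range, and the log2 difference was 0.03 (SE 0.12).

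Pfkfb1 (chromosome X, 150587445 to 150643878, plus strand), the liver and skeletal muscle isoform, in which phosphorylation by protein kinase A in liver favours the phosphatase, was lower in CKD. It measured 8.97, 7.75, 11.1, 9.63 and 8.50 FPKM in CKD 1 to 5, and 22.0, 21.3, 12.9, 12.6 and 19.9 FPKM in Sham 1 to 5. All CKD mice lay below all Sham mice, but Sham 3 and Sham 4 were close to the CKD values and the other 3 Sham mice stood well above. The means were 9.19 ± 1.28 and 17.7 ± 4.62 FPKM, a log2 difference of -0.88 (SE 0.16), 1.84-fold lower in CKD. Without CKD 1 and Sham 1 they were 9.25 ± 1.47 and 16.7 ± 4.58 FPKM (n = 4 each). Hepatocyte markers summed to at most 1.77 FPKM in any mouse. Skeletal muscle markers summed to 17.0 to 43.8 FPKM in CKD and 8.60 to 14.4 in Sham, and Mybpc2, a myosin-binding protein of fast muscle, was the 1 gene of the list that was called, at 18.8 ± 1.79 and 9.27 ± 1.58 FPKM (limma adjusted p = 0.000813). Without Mybpc2 the sums overlapped, at 0.652 to 25.4 FPKM in CKD and 1.55 to 3.50 in Sham, and the highest was in CKD 2, with 3.22 at most in the other CKD mice. The part of muscle fibres in the Pfkfb1 level was not tested.

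In Sham, Pfkfb1 varied more than 93.4% of tested genes (coefficient of variation 26.1%), and the mice that were low were also low in output genes of the circadian clock. These clock genes were looked at after the values had been seen. Dbp, a clock-driven PAR bZIP factor, was at 121, 141, 30.3, 28.6 and 111 FPKM in Sham 1 to 5 and at 67.5, 26.1, 104, 114 and 74.3 FPKM in CKD 1 to 5. Arntl, the clock activator BMAL1, ran the other way, at 1.05, 0.886, 7.11, 7.44 and 2.66 FPKM in Sham and 3.06, 8.32, 0.527, 1.10 and 3.23 FPKM in CKD. Neither gene was called between the groups (limma adjusted p = 0.994 for Dbp and 0.902 for Arntl). A score was formed as the mean log2 level of Dbp, Tef, Hlf, Per2 and Per3 minus that of Arntl, Clock and Npas2.

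The score split the mice into 3 with values of 0.52 to 0.60 (CKD 2, Sham 3 and Sham 4) and 7 with values of 2.00 to 3.59, so no correlation over all 10 is given. Sham 3 and Sham 4 had the lowest Pfkfb1 of the Sham mice and CKD 2 the lowest of the CKD mice. Within the other 7 mice, centred on their group means, Pfkfb1 had a Pearson correlation with the score of 0.89 and a Spearman correlation of 0.86. Without CKD 1 and CKD 5, the 2 mice farthest from the median score, the Pearson correlation of Pfkfb1 was 0.70. A correlation of similar size was not particular to Pfkfb1. In the same 7 mice the Pearson value was -0.83 for Pfkp, -0.68 for Pfkfb4, 0.59 for Pfkfb2, -0.50 for Pfkl, -0.49 for Pfkfb3 and 0.24 for Pfkm. These correlations are descriptions, with no p-value given. With the score as a term in the limma fit, the Pfkfb1 difference was -0.91 (SE 0.07), against -0.88 (SE 0.16) without it. The score was built after the values had been seen, from genes that followed Pfkfb1 across the mice. The correlations and the smaller SE with the term therefore support nothing, and the part of the clock in the Pfkfb1 difference was not tested.

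**Figure D3:**
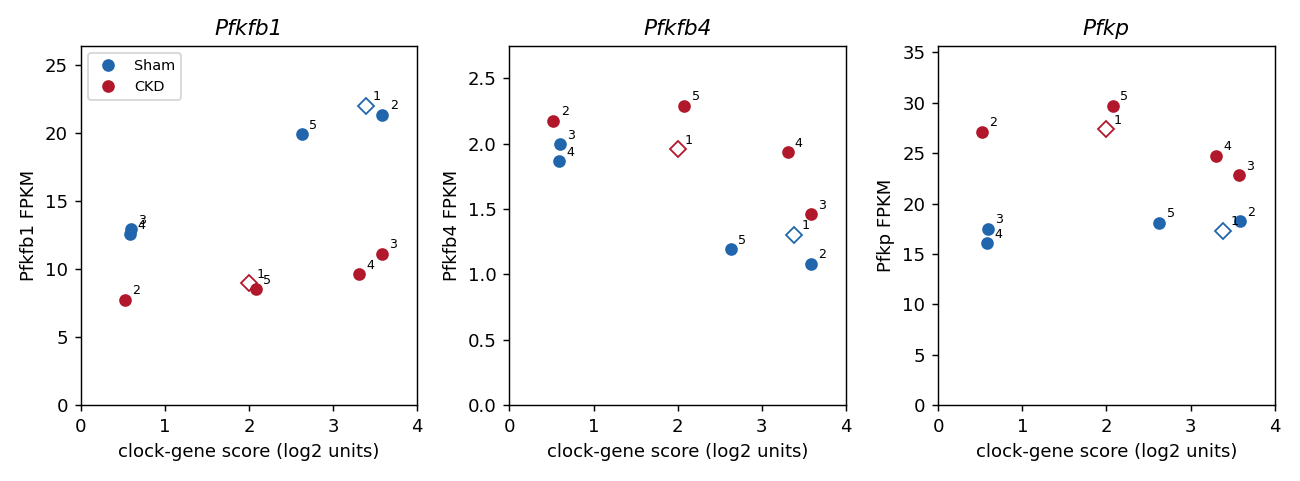
FPKM of Pfkfb1, Pfkfb4 and Pfkp (vertical, linear from 0) against the clock-gene score in log2 units (horizontal) for each mouse, numbered within its group, with Sham in blue, CKD in red and CKD 1 and Sham 1 as open diamonds. Sham 3 and Sham 4, at scores of 0.60 and 0.59, have 12.9 and 12.6 FPKM of Pfkfb1, and CKD 2, the only CKD mouse at a low score (0.52), has 7.75 FPKM.

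RefSeq lists 4 promoter windows for Pfkfb1, and FPKM per gene does not tell which start was used. The window at the start farthest downstream is shown, the only one of them free of annotated exons, because the mice low in Pfkfb1 were low in clock output genes, and clock factors are known to bind E-boxes and D-boxes:
Pfkfb1 (chrX:150594178-150594427, plus strand): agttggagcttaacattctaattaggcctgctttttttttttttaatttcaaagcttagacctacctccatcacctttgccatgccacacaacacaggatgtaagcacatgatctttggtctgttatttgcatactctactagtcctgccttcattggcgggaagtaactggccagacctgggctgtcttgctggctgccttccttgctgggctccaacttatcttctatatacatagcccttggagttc
It has no capitals, since none of the 5 motifs named above was found in it. No E-box or D-box was found in the 250-base windows of the other 3 starts either, and 1 of them held 2 GC boxes. Absence of these letters says nothing about binding, which was not measured.

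Pfkfb4 (chromosome 9, 108988272 to 109032236, plus strand), known as a testis isoform that hypoxia induces in many cells, was the least abundant of the family. It measured 1.96, 2.18, 1.46, 1.93 and 2.29 FPKM in CKD 1 to 5 and 1.30, 1.08, 2.00, 1.87 and 1.19 FPKM in Sham 1 to 5. The groups overlapped through Sham 3 and Sham 4, the mice in which Pfkfb1 was low, and CKD 3, which had the lowest Pfkfb4 of the CKD mice, had their highest Pfkfb1. The centred correlation of Pfkfb1 with Pfkfb4 over the 10 libraries was -0.93, the strongest of the 21 pairs in size, again as a description, and it carries the same split of the mice. The log2 difference of Pfkfb4 was 0.32 (SE 0.15), and with the clock score as a term it was 0.35 (SE 0.10).

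Pfkfb3 (chromosome 2, 11471430 to 11554071, minus strand) is the inducible isoform with a high ratio of kinase to phosphatase activity, known for its induction by hypoxia and in activated immune and endothelial cells. It was at 27.7 FPKM in CKD 1 and at 2.75, 3.71, 4.00 and 3.66 FPKM in CKD 2 to 5, against 4.25, 4.83, 2.81, 3.12 and 3.89 FPKM in Sham 1 to 5. Outside CKD 1 the groups overlapped throughout. The log2 difference was 0.49 (SE 0.48) over all mice, -0.08 once CKD 1 was left out and -0.03 once Sham 1 was left out too.

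In CKD 1, Pfkfb3 stood among 24 tested genes that exceeded every other library by over 2 log2 units, where each other library had 0 to 2 such genes. Ordered by the size of that gap Pfkfb3 was number 22, with a gap of 2.40. The list was led by Gbp4, an interferon-inducible guanylate-binding protein, at 99.4 FPKM in CKD 1 and at most 4.48 elsewhere, and by Igtp, an immunity-related GTPase, at 130 and at most 8.17 FPKM. Cd274 and Irf1, numbers 6 and 24 by that gap, were picked from the list by name. Cd274, the immune checkpoint ligand PD-L1, was at 57.5 and at most 4.65 FPKM. Irf1, the transcription factor of the interferon-gamma response, was at 74.5 and at most 16.2 FPKM. The part of these genes in the Pfkfb3 level was not tested. The 15 listed hypoxia factors and targets summed to 697 FPKM in CKD 1, against 629 to 664 FPKM in CKD 2 to 5 and 640 to 706 FPKM in Sham. Of the 15, only Bnip3 (92.0 FPKM) and Ndrg1 (24.1 FPKM) had their highest level of the 10 mice in CKD 1. Vegfa, for example, was at 143 FPKM in CKD 1 and 162 FPKM in CKD 2. The part of the hypoxia genes in the Pfkfb3 level was not tested either. The macrophage marker sum of CKD 1, 438 FPKM, lay inside the range of the other CKD mice.

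Pfkfb3 has 2 RefSeq promoter windows. The one at the downstream start is shown, outside annotated exons, because it holds the E-box that contains the hypoxia-factor core. Capitals mark the E-box CACGTG and 2 GC boxes:
Pfkfb3 (chr2:11502102-11502340, minus strand): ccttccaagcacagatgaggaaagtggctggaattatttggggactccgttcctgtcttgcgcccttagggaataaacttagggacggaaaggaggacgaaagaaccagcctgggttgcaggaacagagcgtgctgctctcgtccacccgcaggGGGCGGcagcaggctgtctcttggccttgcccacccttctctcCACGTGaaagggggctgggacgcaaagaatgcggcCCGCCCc
The E-box, present in 6.02% of windows, was the only match to ACGTG in this window, and there was no TTCNNNGAA. It was not particular to Pfkfb3: of the 16 windows of the 7 genes 3 held an E-box, the others being windows of Pfkm and Pfkfb2. The Pfkfb3 window at the upstream start held 1 ACGTG and no TTCNNNGAA. The data do not bear on which start was active in CKD 1.

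Within the PFKFB transcripts, Pfkfb2 took 67.6% ± 10.9 of FPKM in CKD and 62.0% ± 8.78 in Sham, and Pfkfb1 16.2% ± 2.76 and 29.3% ± 7.99, with overlap for both. Pfkfb3 took 37.2% in CKD 1, and its mean in the other 4 CKD mice was 6.57% ± 0.501 (n = 4), with 6.23% ± 1.44 in Sham. Pfkfb4 took 3.51% ± 0.957 and 2.45% ± 0.706. With Pfkfb3 left out of the sum, Pfkfb1 was at 18.6% ± 1.61 in CKD and 31.4% ± 8.95 in Sham, and its ranges still overlapped because Sham 4 was at 20.4%. The summed PFKFB level was 57.7 ± 10.4 FPKM in CKD and 61.0 ± 6.19 in Sham, and these ranges overlapped.

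**Figure D4:**
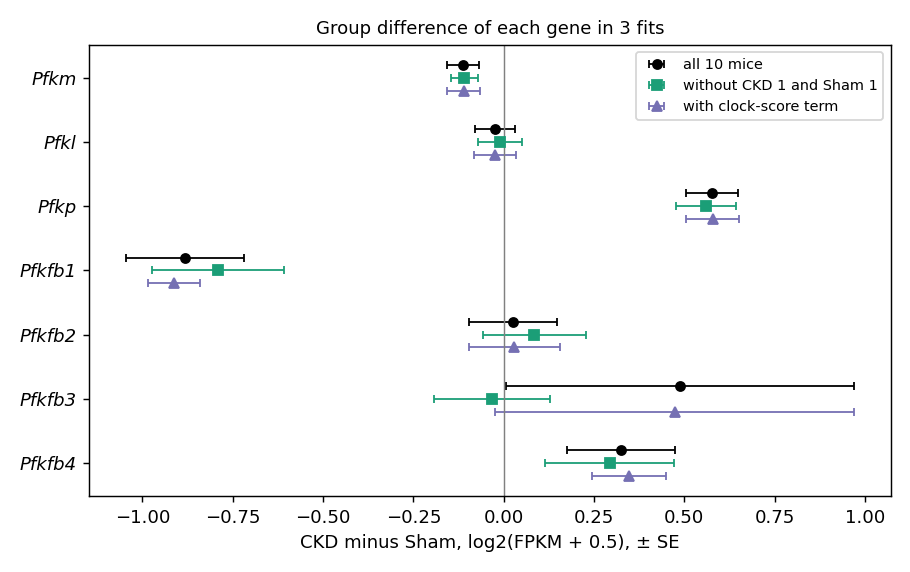
Difference CKD minus Sham in log2(FPKM + 0.5) for each gene with its SE (horizontal, linear) from all 10 mice (circles), without CKD 1 and Sham 1 (squares) and with the clock-gene score as a term (triangles). Pfkp lies at 0.56 to 0.58 and Pfkfb1 at -0.91 to -0.79 in the 3 fits, and the Pfkfb3 value of 0.49 becomes -0.03 without the 2 libraries.

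The enzymes around this step were mostly not called. Of 16 tested other glycolytic enzymes 1 was called higher and 1 lower, with a list median of 0.06 on the log2 scale against 0.00 for all genes. At an unadjusted limma p under 0.05, 7 of the 16 passed, against 2275 of all 11651 tested genes. Ldhb, the heart-type lactate dehydrogenase subunit, fell: the CKD mean was 1292 ± 60.4 FPKM and the Sham mean 1441 ± 34.4 FPKM, a log2 difference of -0.16 (SE 0.04, limma adjusted p = 0.0495). The Ldhb call was lost in 15 of 22 alternatives (highest adjusted p = 0.121), among them leaving out any library but Sham 5. Hk2, the insulin-responsive hexokinase, measured 80.2 ± 6.36 FPKM (CKD) and 84.9 ± 8.33 FPKM (Sham) (adjusted p = 0.619). Aldoa, the muscle aldolase that acts on the PFK-1 product, was at 2062 ± 53.0 and 1912 ± 30.3 FPKM and did not overlap between the groups, but missed the threshold (log2 0.11, adjusted p = 0.0946). Pkm, pyruvate kinase, had a log2 difference of -0.10 (adjusted p = 0.240), and Ldha, the muscle-type lactate dehydrogenase subunit, of 0.05 (adjusted p = 0.601).

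The enzymes that oppose PFK-1 or PFKFB kinase were represented by 2 tested genes. Fbp2, the muscle fructose-1,6-bisphosphatase, which reverses the PFK-1 reaction, was at 11.5, 8.12, 12.1, 12.2 and 9.87 FPKM in CKD 1 to 5 and at 16.8, 18.5, 14.8, 12.6 and 17.6 FPKM in Sham 1 to 5. It fell, with means of 10.8 ± 1.75 FPKM in CKD and 16.1 ± 2.35 FPKM in Sham and no overlap, a log2 difference of -0.56 (SE 0.13, limma adjusted p = 0.0245). The Fbp2 call was lost on leaving out CKD 5, Sham 1 or Sham 2, and on leaving out CKD 1 and Sham 1 together (highest adjusted p = 0.0627). Sham 3 and Sham 4, low in Pfkfb1, were also the lowest Sham mice in Fbp2. Tigar, a fructose-2,6-bisphosphatase listed under an older symbol, was at 29.3 ± 3.16 and 30.2 ± 2.89 FPKM (adjusted p = 0.839). Fbp1, the liver form, was under 0.5 FPKM in every mouse and was not tested.

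Of 13 glycogen genes 1 was called higher and 1 lower, and 7 had an unadjusted limma p under 0.05. Ugp2, which makes UDP-glucose for glycogen, rose: the CKD mean was 156 ± 4.54 FPKM and the Sham mean 119 ± 10.1 FPKM (limma adjusted p = 0.00335; log2 0.39, SE 0.06). Phkg1, the muscle catalytic subunit of phosphorylase kinase, fell: the CKD mean was 12.7 ± 1.78 FPKM and the Sham mean 16.9 ± 1.07 FPKM (adjusted p = 0.0290; log2 -0.41, SE 0.09). Of 14 hypoxia genes 1 was called higher: Bnip3, a mitophagy receptor, rose, with a CKD mean of 81.5 ± 6.66 FPKM and a Sham mean of 66.7 ± 4.88 FPKM (adjusted p = 0.0297; log2 0.29, SE 0.07). At an unadjusted limma p under 0.05, 3 of the 14 passed. The calls of Phkg1 and Bnip3 were each lost in 6 of 22 alternatives. For Phkg1 these left out CKD 3, CKD 5, Sham 2, Sham 3, Sham 4 or Sham 5 (highest adjusted p = 0.0692), and for Bnip3 CKD 3, CKD 5, Sham 2, Sham 3 or Sham 5, the other being scaling to the same total (highest adjusted p = 0.0814). Limma called 0 of 4 glucose transporters (1 at an unadjusted p under 0.05), 0 of 11 genes of the pentose phosphate and hexosamine branches (1 unadjusted), 0 of 18 kinase genes that act on PFKFB or PFK-1 proteins (3 unadjusted) and 0 of 14 transcription factors of carbohydrate enzymes (3 unadjusted). The medians of these 4 lists were -0.09, 0.01, -0.04 and -0.02 on the log2 scale, and those of the glycogen and hypoxia lists 0.03 and 0.00. Over all 92 tested genes of these lists, 6 were called with all mice and 9 without CKD 1 and Sham 1. In that smaller set of mice the kinase list had 1 gene called higher (Akt1, log2 0.22, limma adjusted p = 0.0429, against 0.0732 with all mice) and 1 lower (Prkag1, an AMP-activated kinase subunit, log2 -0.19, adjusted p = 0.0403, against 0.0596). The glycogen list then had 3 genes called lower, Phkg1 and the glycogen phosphorylases Pygm (adjusted p = 0.0489, against 0.0555) and Pygb (0.0395, against 0.0694). The glycolytic list then had 2 genes called higher, Gapdh among them (log2 0.15, limma adjusted p = 0.0415, against 0.200 with all mice), and 0 lower. These further genes were named after their values were seen.

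Entries with only clone, gene-model or small RNA names, and entries joining several genes, were left out here. The genes whose centred log2 levels followed a member most closely over the 10 libraries were found among the other tested genes. For Pfkp they were Ifnar2 (r = 0.93), Rapgef2 (0.91) and Ube2s (0.88), for Pfkfb1 Phf12 (0.99), Slc6a6 (0.96) and Slc1a5 (0.96), and for Pfkm Ercc5 (0.96), Aes (0.93) and Top1mt (0.92). For Pfkfb1 these values carry the split of the mice described above: Slc6a6 was at 22.8 and 23.7 FPKM in Sham 3 and Sham 4 and at 36.7 to 38.9 FPKM in the other Sham mice. The named correlations, of 10 values each, are the highest per member among the 11651 tested genes without the entries left out. None of the 9 genes was called between CKD and Sham (limma adjusted p = 0.174 to 0.969).

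On the opposite strand, 4 members overlap another measured gene: Pfkm shares 1156 bases with Senp1, Pfkp 748 with Pitrm1, Pfkfb1 1640 with Apex2 and Pfkfb2 7032 with Yod1. None of these 4 neighbours was called (limma adjusted p = 0.169 to 0.977). Apex2 measured 3.08 ± 0.531 FPKM (CKD) and 3.94 ± 0.602 FPKM (Sham), and the sources give no word on whether strand was used in the counting.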

How the data were processed

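The deposited table holds 1 FPKM value per gene entry and library. Per the submitters' processing notes, STAR 2.4.0f1, Cufflinks 2.1.1 and Cuffdiff 2.1.1 were used and the builds mm10 and hg19 are named, with no role given. Per the labels' protocols, libraries were made with the TruSeq mRNA protocol and read as single reads. FPKM is not a count, so no count model was used, and its precision at low values is unknown.

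The scale of analysis was log2(FPKM + 0.5), without rescaling of libraries. Genes with a mean of at least 1 FPKM were tested, CKD against Sham, with limma 3.58.1 in R 4.3.3 (eBayes with trend, two-sided, Benjamini-Hochberg, threshold 0.05), after a check on simulated data. The 7 genes, the gene lists and the tests were chosen with earlier results of these data known. Other pathway genes named are those called, at most 4 a list, and Hk2, Fbp2, Tigar, Aldoa, Pkm and Ldha. For Pfkp, Pfkfb1 and Pfkm the 3 tested genes with the highest centred correlation were named. Clone, gene-model and small RNA names and entries joining several genes were left out of that search. The clock genes, the fit with the clock score and the PFKFB shares without Pfkfb3 were added after the values had been seen. Of the genes high in CKD 1, Gbp4 and Igtp were named as those with the largest gap to the next library. Cd274 and Irf1 were picked from the same list by name, and Ndrg1 and Vegfa were named after the values had been seen. One of the called pathway genes is counted but not reported here by name.

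Positions are from RefSeq (GRCm38.p6), the assembly that mm10 denotes, and exons from GENCODE M21. All 7 genes matched a RefSeq promoter window, of which the 250 bases before the start were searched on both strands. Alternatives covered pseudocounts, filters, scalings, variance models, sample weights and leaving out libraries.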

Additional observations from a re-analysis of the deposited data

Results flagged for a closer look

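In groups of 5 mice a value was looked at again when the gap between the most extreme mouse and its neighbour, divided by the range of the group, was above 0.71, Dixon's critical value. Of 54 groups of values tested (the 7 genes, their shares, the sums and the named pathway genes), 3 passed, and chance gives about 1 in 20.

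All 3 come from CKD 1. Its Pfkfb3 level of 27.7 FPKM, against 2.75 to 4.00 in the other CKD mice, had a ratio of 0.950. Its Pfkfb3 share of 37.2% of PFKFB FPKM, against 5.86% to 6.99%, had a ratio of 0.964. Its Pfkfb2 share of 48.2%, the lowest in CKD, had a ratio of 0.904, while its Pfkfb2 level of 35.9 FPKM lay inside the range of the other CKD mice, 34.3 to 43.0. The same library held 52 genes that exceeded every other library by over 1 log2 unit, where the others held 1 to 4.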

How the results depend on the processing

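Over 22 alternatives the log2 difference was 0.53 to 0.63 for Pfkp and -0.99 to -0.73 for Pfkfb1. The family was chosen on this contrast, so these ranges, and the count of 2 family genes among the calls, describe the settings and support nothing. Leaving out 1 library at a time gave 201 to 384 genes called higher (369 with all mice) and 131 to 290 called lower (247), 2 to 2 family genes and 2 to 6 other pathway genes (6). Counts moved by over 1.5 times without CKD 2, CKD 5, Sham 2, Sham 3 or Sham 4 for higher calls, and without these or CKD 3 for lower calls. For pathway genes the count was 3 without CKD 3, CKD 5 or Sham 3 and 2 without Sham 2. Sample weights gave 400 lower calls and 14 pathway genes. Without CKD 1 and Sham 1 together, 305 and 249 genes were called, and with the clock term 410 and 275.

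Leaving out 1 library, the share differences in percentage points were -2.37 to -1.70 for Pfkm, 0.12 to 0.52 for Pfkl, 1.58 to 1.87 for Pfkp, -15.6 to -11.1 for Pfkfb1, 3.32 to 10.4 for Pfkfb2, 0.34 to 8.17 for Pfkfb3 and 0.77 to 1.31 for Pfkfb4. The low Pfkfb3 and high Pfkfb2 ends are without CKD 1. As shares of all 7 genes, the Pfkfb1 difference was -1.22 and that of Pfkfb4 0.0887, since Pfkm then dominates the sum. Pfkfb4 has no value at a mean of at least 3 FPKM. No paired analysis was possible because the labels give no numbers shared between the groups.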
